A study of Mus musculus with 6 samples.

Results

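The interleukins, their receptors and antagonists, the tumour necrosis factor (TNF) superfamily, interferon gamma, the interferon receptors and the colony stimulating factors were followed in small intestines of Cftr null mice. Members were the probe sets with a single gene symbol that begins Il and a digit, Tnfsf, Tnfrsf, Ifng, Ifnar or Csf1 to Csf3, or is Tnf or Lta, without Csf1r. The rule found 93 of the 12488 probe sets on the array. Of these, 2 are array control probe sets, for Il10 and Il4, and the other 91 stand for 75 genes.

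These genes form the messenger system by which epithelium, lymphocytes, mast cells and macrophages of the gut wall address one another. Ligands are secreted or displayed on the cell surface, mostly at low transcript levels, and act on receptors that signal through Janus kinases and STAT factors (most interleukins and the interferons) or through adaptors that activate NF-kB (the interleukin 1, interleukin 17 and TNF families). Secreted antagonists and decoy receptors bind a ligand or occupy a receptor without passing on a signal. Interleukins of the type 2 response drive mast cell and goblet cell responses in the intestine, while interferon gamma and TNF accompany type 1 inflammation.

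RNA came from the entire small intestine of 6 mice, 1 mouse per array, and was measured on 1-colour Affymetrix arrays. The control group was 3 CFTR(+/+) mice and the null group 3 CFTR(-/-) mice, all 40 days old and congenic on the black6 background. Every mouse of both groups had received Peptamen, a liquid diet, from day 10 of life against intestinal obstruction. Each group held 2 males and 1 female, the females being control replicate 3 and null replicate 2. The labels number no replicates: the numbers follow the order of deposit, only name the mice and pair none. The labels do not say how the Cftr allele was altered. The samples are whole organs, so fewer cells of a type and less RNA per cell cannot be told apart in any value.

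The brightest Cftr probe set was lower in every null mouse (295.6 to 368.5) than in any control (801.6 to 1017.5; limma adjusted p = 0.00421). Values are scaled intensities in arbitrary units, with a 2%-trimmed mean of 500.3 on every array. Pearson correlations between arrays, across tested probe sets, lay between 0.947 and 0.972 within a group and between 0.909 and 0.951 across groups. Most defining genes of the labelled tissue were bright, with Smtn and Cdx2 the dimmest. All 10 epithelial and all 6 smooth muscle marker genes had a tested probe set, and 0 of either list passed the test. Fabp2 was lower in every null mouse (log2 change -1.31, limma adjusted p = 0.0938). Cnn1 (log2 change 0.90, limma adjusted p = 0.0556), Tagln and Des were higher in every null mouse. The groups of the other marker genes overlapped. The summed intensity of the smooth muscle genes was between 6542 and 9789 in controls and between 9901 and 11965 in nulls. That of the epithelial genes was between 71327 and 92392 in controls and between 55315 and 73966 in nulls. Of the 7601 probe sets tested, 228 (3.0%) passed, 86 (1.13%) higher and 142 (1.87%) lower in null mice.

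The stretch around the transcription start, 250 bases before it to 50 after it, is shown for the single member that passed the test (Il18bp), for the interleukin 4 receptor and the interleukin 1 antagonist, whose groups did not overlap upward, and for the interferon gamma receptor chain Ifngr2, whose groups did not overlap downward. The sequences are those of RefSeq on build GRCm38.p6, whose promoter table held 61 of the 75 genes, with 75 start sites. They lie at chr7:102018183-102018482 on the minus strand (Il18bp), chr7:125552021-125552320 on the plus strand (Il4ra), chr2:24336610-24336909 on the plus strand (Il1rn, the first of 3 listed starts) and chr16:91546809-91547108 on the plus strand (Ifngr2). Capitals mark matches to any of 5 motifs searched on both strands.
Il18bp: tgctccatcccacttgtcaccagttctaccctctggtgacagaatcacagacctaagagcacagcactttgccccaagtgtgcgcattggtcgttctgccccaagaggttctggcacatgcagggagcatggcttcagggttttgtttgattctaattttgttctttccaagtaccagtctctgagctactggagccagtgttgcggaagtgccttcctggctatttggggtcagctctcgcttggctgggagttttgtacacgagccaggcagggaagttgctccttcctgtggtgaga
Il4ra: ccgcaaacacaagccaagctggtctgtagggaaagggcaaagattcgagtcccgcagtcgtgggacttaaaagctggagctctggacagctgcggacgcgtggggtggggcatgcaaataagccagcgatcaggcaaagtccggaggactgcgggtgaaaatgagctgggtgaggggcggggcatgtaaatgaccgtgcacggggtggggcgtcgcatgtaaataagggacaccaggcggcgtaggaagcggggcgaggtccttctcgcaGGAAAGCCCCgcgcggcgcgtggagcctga
Il1rn: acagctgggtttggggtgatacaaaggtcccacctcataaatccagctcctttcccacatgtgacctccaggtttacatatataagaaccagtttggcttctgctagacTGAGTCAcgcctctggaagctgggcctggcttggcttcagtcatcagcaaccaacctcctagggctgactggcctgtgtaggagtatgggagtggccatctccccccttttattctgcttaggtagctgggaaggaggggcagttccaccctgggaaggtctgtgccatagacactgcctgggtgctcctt
Ifngr2: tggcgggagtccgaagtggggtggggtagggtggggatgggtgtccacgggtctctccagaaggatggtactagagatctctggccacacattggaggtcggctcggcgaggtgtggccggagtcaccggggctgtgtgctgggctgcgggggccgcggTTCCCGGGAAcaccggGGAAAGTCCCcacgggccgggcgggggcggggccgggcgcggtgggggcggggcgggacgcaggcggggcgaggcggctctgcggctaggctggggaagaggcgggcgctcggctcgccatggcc

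The motifs were the gamma-activated site TTCNNNGAA, the STAT6 element (TTC and GAA with any 4 bases between), the core of the interferon-stimulated response element (GAAA and GAAA with any 2 bases between), the kappaB site and the AP-1 site TGANTCA. Il18bp held none of the 5 in this window, which says only that these letters are not there. Il4ra held 1 kappaB match, Il1rn 1 AP-1 match at the start shown, and Ifngr2 1 match each to the STAT6 element and the kappaB site. The other 2 listed starts of Il1rn held no AP-1 match. Their windows overlap and share 1 match to the STAT6 element, which is the same stretch in both. The gamma-activated site was found in 22.7% of the 75 member promoters and in 8.3% of all 32851 promoters in the table. The STAT6 element was found in 15 of the 75, which belong to 12 genes, and in 7.0% of all. Overlapping windows of a gene can count the same stretch more than once. The corresponding shares were 5.3% and 3.4% for the interferon response core, 14.7% and 8.5% for the kappaB site, and 16.0% and 7.8% for AP-1. A match describes the letters and is not a known site.

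Most of the family was dim. Testing required a value over 109.7, the 40th percentile across the table, on 3 or more of the 6 arrays, and members short of this are called dim. Of the 91 members, 53 (58.2%) were dim, against 38.8% of all 12422 probe sets, and 50 of the 53 lay at or under 109.7 in every mouse. At least 1 tested probe set was found for 33 of the 75 genes. Few ligands were bright enough to test: a tested probe set was found for 3 of 19 interleukin ligands and 2 of 7 TNF family ligands. It was found for 9 of 21 interleukin receptors, 7 of 11 TNF receptors, 3 of 5 interleukin antagonists or decoy receptors, 4 of 5 genes of interferon gamma and the interferon receptors, and 5 of 7 genes of the colony stimulating factors and their receptors.

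**Figure D1:**
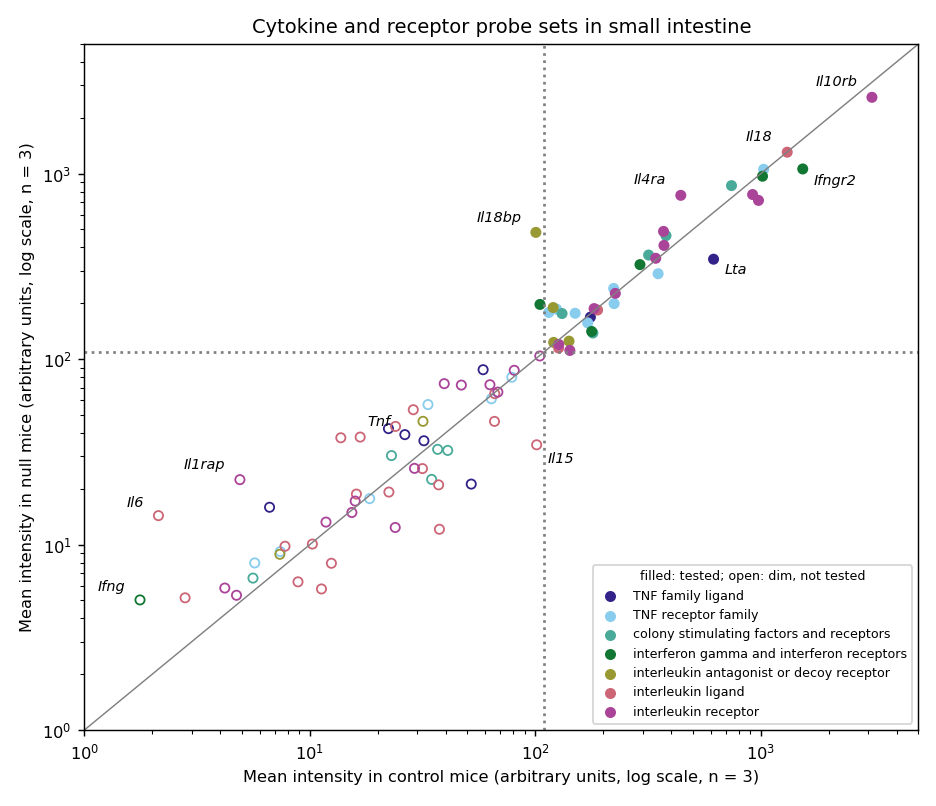
Mean intensity of the 91 member probe sets in control mice (x axis) and null mice (y axis), both on log scales in arbitrary units with n = 3 mice each, coloured by role. Filled points were tested and open points were dim, the dotted lines mark the level of 109.7, and the diagonal marks equal means. Il18bp stands farthest above the diagonal among the filled points, at 100.6 in controls and 482.2 in nulls.

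Among the 38 tested members, 1 passed the test (2.6%, against 3.0% of all tested probe sets): Il18bp, the secreted protein that binds and neutralizes interleukin 18, rose in null mice. No member fell, by limma, and at an unadjusted p under 0.05 there were 8 members (21.1%, against 17.3% of all tested probe sets), 5 higher and 3 lower. Groups did not overlap in 8 members (21.1%), against 23.8% of all tested probe sets. Of these, 5 (13.2%, background 13.1%) were higher in every null mouse and 3 (7.9%, background 10.8%) lower. The shares of the members were thus close to those of the array as a whole. The median log2 change of the tested members was 0.00, against 0.03 over all tested probe sets, with 19 members above 0 and 19 below. Among the 53 dim members, which were not tested, the groups of 8 did not overlap (15.1%, against 11.6% of all dim probe sets). In 6 of them (11.3%, against 6.26%) every null mouse was higher: Ifng, Il2, Il6, Il7, Il1rap and Tnf. In 2 (3.8%), Il15 and 1 probe set of Il4, every null mouse was lower. Over all dim probe sets, the share lower is the part of the 11.6% that is not in the 6.26%.

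For 27 of the 38 members (71.1%) the 95% interval of the change lay within 2-fold in either direction, as it did for 81.4% of all tested probe sets. The median standard error was 0.23 for the members and 0.18 for all tested probe sets, both on the log2 scale. A fold change here is of log2(value + 12), which understates changes of dim genes.

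**Figure D2:**
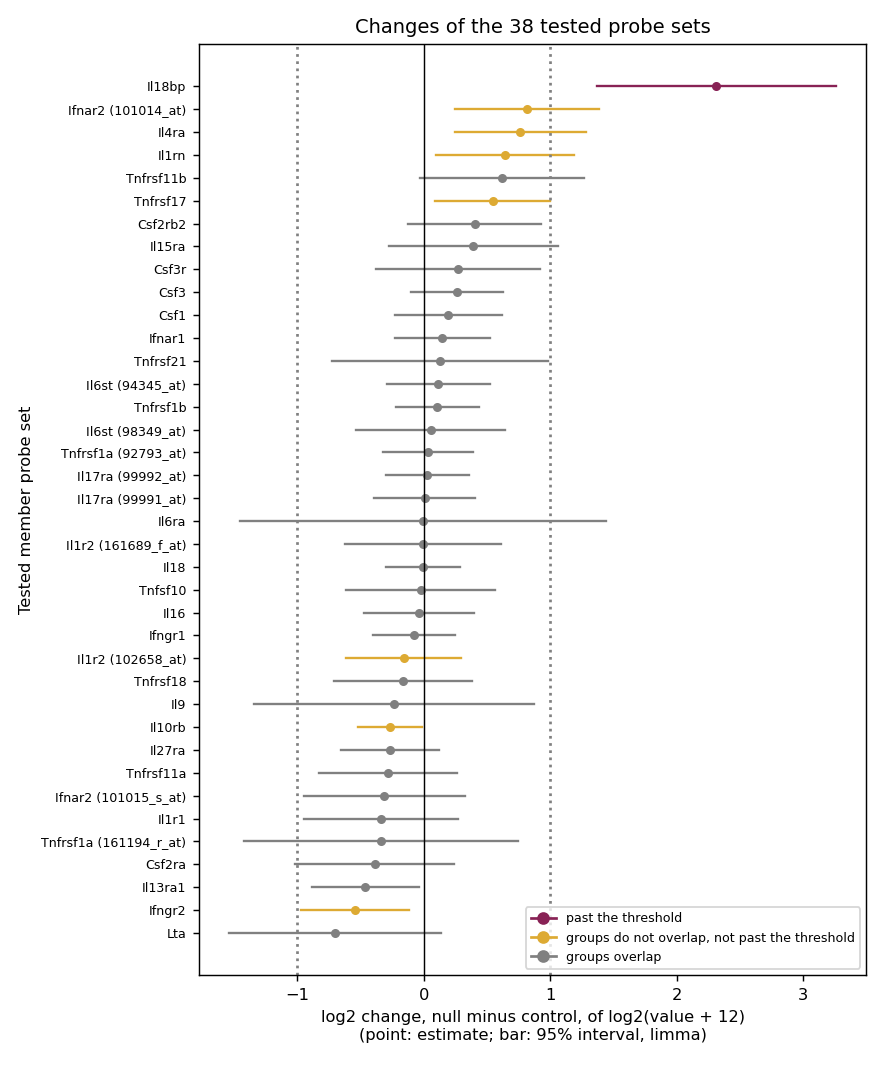
Log2 change, null minus control, of each of the 38 tested member probe sets (y axis), with its 95% interval from limma on 3 against 3 mice. The solid line marks no change and the dotted lines a 2-fold change either way. Purple is past the threshold, yellow marks groups that do not overlap and grey groups that do. The interval of Il18bp, 1.37 to 3.26, is the single one that lies wholly beyond 2-fold.

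Il18bp was at 44.4, 181.4 and 76.0 in the 3 controls and at 526.3, 522.7 and 397.6 in the 3 nulls, written here as elsewhere in the order of replicates 1 to 3. Every null mouse lay above every control, the nearest control being replicate 2, and 2 of the 3 controls lay under the level of 109.7. It averaged 100.6 ± 71.7 in controls against 482.2 ± 73.3 in nulls (SD, n = 3 each). Il18bp was at least 4.03-fold higher in nulls, a bound taken against the level of 109.7 because the control mean on the log2 scale lay under it (fitted log2 change 2.31, SE 0.41, limma adjusted p = 0.028). The call was lost when single mice were left out: the limma adjusted p was 0.062 without control replicate 1, 0.073 without control replicate 3, and 0.116, 0.078 and 0.078 without null replicates 1, 2 and 3. Without control replicate 2 it was 0.00701, and in the males alone 0.147. The log2 change lay between 1.91 and 2.80 in these fits.

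The ligand it binds, Il18, a cytokine of the interleukin 1 family that epithelial cells store as a precursor, was bright in all mice. It was at 1230.9, 1271.5 and 1425.6 in controls and 1412.5, 1151.1 and 1350.8 in nulls, with overlapping groups. Its log2 change was -0.01 with a 95% interval from -0.30 to 0.29. Caspase 1, Casp1, which cleaves the precursor, was at 1779 ± 229 in controls and 1554 ± 233 in nulls (SD, n = 3) and did not pass (log2 change -0.20, limma adjusted p = 0.567). Both receptor chains were dim in every mouse. Il18r1, the binding chain, was between 59.4 and 75.3 in controls and between 41.0 and 91.7 in nulls. Il18rap, the accessory chain, was between 21.4 and 91.5 in controls and between 38.2 and 90.6 in nulls. Of the 4 genes, Il18bp passed the test, Il18 did not, and the receptor chains were not tested.

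Of 9 macrophage and dendritic cell marker genes measured, 0 rose and 1 fell, Lyz2, the myeloid lysozyme, from 6598 ± 1342 (SD, n = 3) to 3687 ± 216 (limma adjusted p = 0.0437). Their summed intensity was between 8311 and 10608 in controls and between 7013 and 7306 in nulls. Lyz2 carried this difference: the other 8 genes summed to between 3164 and 3260 in controls and between 3313 and 3688 in nulls, higher in every null. That sum does not stand for a shared rise. Of the 7 tested genes, Lyz2 included, 2 lay above 0 (Cd14 and Cd68) and 5 below. Cd14 was at 831.7 ± 109.1 in controls and 1139 ± 29.2 in nulls (SD, n = 3; limma adjusted p = 0.122). Cd14 and Cd68 were higher in every null mouse, Fcgr1 was lower in every null mouse, and the rest of the 8 overlapped. Lyz2 no longer passed in 5 of the 6 fits that left out 1 mouse (all but that without control replicate 2). It also did not pass with equal medians, without a filter or a trend, with sex as a covariate, or in males only. A second Lyz2 probe set was dim, at no more than 44.8, and its groups overlapped. Which cells gave the Lyz2 values was not tested. Of 13 tested genes that interferon gamma is known to induce, 0 passed, 11 lay above 0 and 2 below (Ciita and Ido1), with a median log2 change of 0.37. Over all tested probe sets, 54.3% lay above 0 and the median was 0.03. The list was drawn up with earlier results of these data known, so its counts are no independent evidence of direction. Among the 13, only Cxcl9 and Irf1 had groups that did not overlap. The chemokine Cxcl9 was at 81.7, 137.0 and 89.5 in controls and 165.2, 485.2 and 265.1 in nulls (limma adjusted p = 0.111). The transcription factor Irf1 was at 1837 ± 105 in controls and 2507 ± 366 in nulls (limma adjusted p = 0.155). The part of either list in the rise of Il18bp was not tested.

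The interleukin 1 antagonists and decoys otherwise did not pass. Il1rn, which occupies the interleukin 1 receptor without signalling, was at 104.4, 159.5 and 96.0 in controls and 183.6, 175.3 and 210.3 in nulls. All nulls lay above all controls, with control replicate 2 nearest to them (log2 change 0.64, SE 0.24, limma adjusted p = 0.22). Il1r2, the decoy receptor, was at 141.1 ± 8.64 (SD, n = 3) and 125.0 ± 7.10 on 1 probe set, all nulls below all controls by a small margin (limma adjusted p = 0.72). Its second probe set had a log2 change of -0.01. Il1f5, an antagonist of the interleukin 36 receptor, and Il13ra2, a decoy for interleukin 13, were dim, at no more than 71.6 and 19.6 in any mouse.

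The interleukin 1 ligands themselves were dim. Il1b, the secreted inflammatory form, was at 30.2, 19.9 and 21.9 in controls and 73.1, 19.9 and 37.1 in nulls, and null replicate 1 was the highest. Il1a, the form released from damaged cells, was between 50.1 and 76.5 in controls and between 55.3 and 79.3 in nulls. The signalling receptor Il1r1 was at 142.3 ± 21.8 in controls and 111.4 ± 28.7 in nulls (SD, n = 3) and did not pass (limma adjusted p = 0.565). The shared accessory chain Il1rap was at 3.8, 4.0 and 6.9 in controls and 25.9, 25.5 and 15.8 in nulls. Its groups did not overlap, but all 6 values lay far under the level of 109.7 and were not tested.

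For the type 2 response, Il4, Il5 and Il13 were dim while both chains of the interleukin 13 receptor, Il4ra and Il13ra1, were tested and did not pass. Il4ra, the chain shared by the receptors of interleukins 4 and 13, was at 458.2, 524.4 and 342.5 in controls and 611.5, 678.4 and 1001.7 in nulls. All nulls lay above all controls and null replicate 3 was the highest, but Il4ra did not pass (log2 change 0.76, SE 0.22, 95% interval 0.24 to 1.28, limma adjusted p = 0.133). A second, dim Il4ra probe set was between 25.2 and 99.9 in controls and between 66.7 and 76.5 in nulls. The partner chain Il13ra1 was at 1014.6, 882.6 and 1031.9 in controls and 547.5, 885.7 and 718.9 in nulls. The groups overlapped through null replicate 2 and control replicate 2 (log2 change -0.46, limma adjusted p = 0.248).

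Of the ligands, Il13 was between 15.0 and 17.4 in controls and between 14.9 and 21.3 in nulls. The 4 probe sets of Il4 lay at no more than 71.6 in any mouse, and on 1 of them all nulls (9.2, 14.9 and 12.2) lay below all controls (23.3, 17.8 and 71.6). Il5, the eosinophil growth factor, was at 34.2, 106.6 and 57.0 in controls and 47.3, 22.9 and 68.3 in nulls. Il9, a mast cell growth factor, was tested, at 169.9, 131.6 and 79.3 in controls and 134.9, 43.6 and 165.8 in nulls (log2 change -0.24, 95% interval -1.35 to 0.87). The lowest mouse of each group was its female. The receptors Il5ra and Il9r lay at or below 21.6 in every mouse.

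Markers of the cells that these cytokines act on are given beside them. Of 8 mast cell genes measured, 3 rose and 0 fell: Mcpt1 and Mcpt2, chymases of mucosal mast cells, and the carboxypeptidase Cpa3. Their summed intensity was between 689.9 and 906.0 in controls and between 4538 and 12221 in nulls. The other 5 genes summed to between 499.6 and 613.1 in controls and between 408.8 and 722.6 in nulls, with overlap. Cpa3 exceeded the level needed for testing in null mice only, so it could only be called as a rise. Cpa3 passed in each fit without a control mouse. The fits without a null mouse or in males only could not test it, because too few arrays were left above the level. A second Cpa3 probe set was dim, and its groups overlapped. The defining receptor genes Fcer1a and Ms4a2 were dim and not tested, at no more than 75.8 and 76.9. In both, every null mouse lay above every control. Fcer1a was between 2.9 and 7.5 in controls and between 12.8 and 75.8 in nulls. Ms4a2 was between 8.9 and 19.4 in controls and between 33.4 and 76.9 in nulls. The groups of Kit, Tpsb2 and Tpsab1 overlapped. Of 5 tested genes known to respond to type 2 cytokines, 1 rose, the goblet cell peptide Retnlb (19.4 ± 2.84 against 4983 ± 2977, SD, n = 3, at least 34.0-fold, limma adjusted p = 0.00169). All 4 eosinophil genes measured were dim. The part of these cells in the values of Il4ra was not tested.

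Other ligands and receptors of the common gamma chain group, which sustain lymphocytes, were dim except Il15ra. Il15, which supports intraepithelial lymphocytes, was at 70.4, 158.2 and 75.6 in controls and 46.9, 25.4 and 31.3 in nulls. Its groups did not overlap, but only control replicate 2 exceeded the level, so that Il15 was not tested. Il15ra, which presents interleukin 15, was at 254.4, 494.8 and 362.1 in controls and 542.5, 327.1 and 594.6 in nulls (log2 change 0.39, limma adjusted p = 0.546). Il7, a survival factor for lymphocytes, was between 8.4 and 30.2 in controls and between 33.6 and 44.0 in nulls, again without overlap and far under the level. Its receptor Il7r was between 67.6 and 100.9 over all mice. Il2 lay at or below 6.4 in every mouse. Its receptor chain Il2rb was at 104.7 ± 13.8 in controls and 104.0 ± 11.5 in nulls (SD, n = 3), just under the level needed for testing. Of 10 T lymphocyte genes measured, 2 were tested and 0 passed.

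The ligands of the interleukin 6, 10, 12 and 17 groups were dim, while most of the widely expressed signalling chains were bright. Il6 was at 0.9, 1.6 and 3.9 in controls and 7.2, 29.7 and 6.1 in nulls, all nulls above all controls at levels near the bottom of the scale. Il11 and Il12a were at no more than 14.1 and 13.1, and Il12b at no more than 52.5. Il10, the anti-inflammatory cytokine, was between 11.5 and 38.8 in controls and between 16.9 and 20.7 in nulls. The array's own control probe set for Il10 gave 59.7, 37.1 and 32.9 in controls and 13.5, 48.5 and 30.3 in nulls. That for Il4 gave between 5.5 and 30.0 over all mice. Il17a was at 4.6, 30.0 and 6.6 in controls and 42.2, 60.5 and 10.3 in nulls, with overlap through null replicate 3.

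Il6st, the signal-transducing chain of the interleukin 6 group, was at 372.0 ± 23.4 in controls and 410.2 ± 97.8 in nulls (SD, n = 3), and a second probe set was at 182.3 ± 56.1 and 187.3 ± 40.8. Both intervals lay within 2-fold. The binding chain Il6ra was at 158.1, 185.8 and 37.4 in controls and 137.7, 46.6 and 175.6 in nulls, so the female was the lowest mouse in each group. Il17ra, the receptor of interleukin 17, had log2 changes of 0.01 and 0.03 on its probe sets. Il27ra was at 919.4 ± 52.9 and 771.6 ± 161.7 (limma adjusted p = 0.458). Il10rb, a chain shared by the interleukin 10 and 22 receptors, was at 2868.4, 3306.9 and 3154.8 in controls and 2461.0, 2684.5 and 2592.1 in nulls. All nulls lay below all controls, by a small difference (log2 change -0.27, 95% interval -0.52 to -0.02, limma adjusted p = 0.257). Il10ra, the binding chain, was dim. Il16, a T cell attractant, was at 188.9 ± 24.0 and 184.0 ± 29.3 (limma adjusted p = 0.94).

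Interferon gamma itself, Ifng, was near the bottom of the scale, at 1.3, 1.7 and 2.3 in controls and 5.3, 7.1 and 2.7 in nulls. Its binding receptor chain Ifngr1 was at 1017 ± 82.6 in controls and 968.3 ± 136.1 in nulls (SD, n = 3; limma adjusted p = 0.825). The second chain, Ifngr2, was at 1751.0, 1469.1 and 1382.6 in controls and 1179.3, 795.1 and 1205.0 in nulls. All nulls lay below all controls, with null replicate 2 the lowest, but Ifngr2 did not pass (log2 change -0.55, SE 0.18, limma adjusted p = 0.181). Of the type I interferon receptor, Ifnar1 was at 291.2 ± 41.0 and 323.2 ± 38.8 (limma adjusted p = 0.685).

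The probe sets of Ifnar2 disagreed. On the first, controls were at 117.2, 88.9 and 108.7 and nulls at 251.8, 190.8 and 149.0, without overlap (at least 1.68-fold, log2 change 0.82, limma adjusted p = 0.139). On the second, whose name carries the suffix s, the controls were at 204.6, 126.0 and 202.9 and the nulls at 182.2, 135.7 and 105.1 (log2 change -0.31, limma adjusted p = 0.615). In the RefSeq annotation of GRCm38.p6, Ifnar2, Il10rb, Ifnar1 and Ifngr2 are direct neighbours, with no other protein-coding gene between them. In these mice the neighbours did not share a direction: Il10rb and Ifngr2 were lower in every null mouse, Ifnar1 overlapped, and Ifnar2 depended on the probe set. None of the 4 passed the test.

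**Figure D3:**
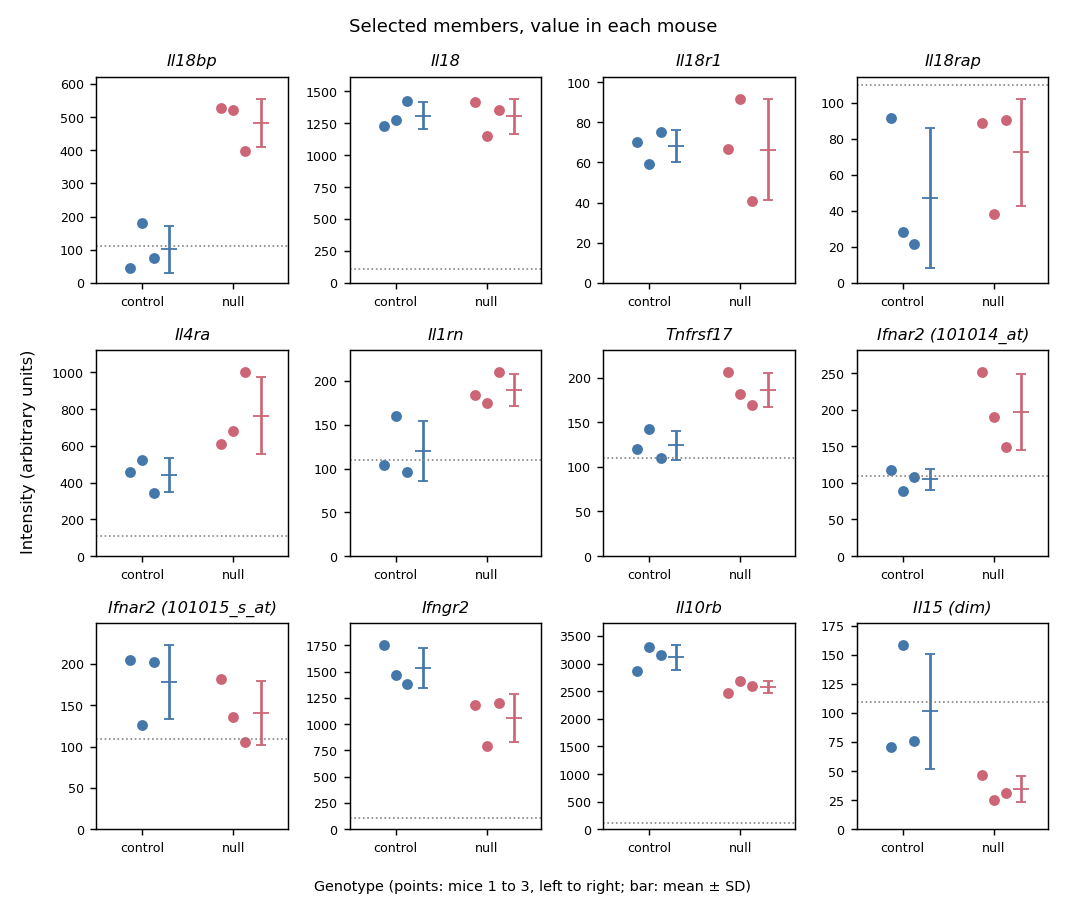
Intensity in arbitrary units (y axis, from 0) of 12 member probe sets in control and null mice, with points for replicates 1 to 3 from left to right and bars for mean ± SD. The dotted line is the level of 109.7 needed in 3 arrays for a test, where it falls within the panel. Il18bp separates the groups while Il18 does not, and the panels of Ifnar2 show its probe sets with unlike patterns.

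In the TNF family, the ligand Tnf was dim, at 25.1, 25.1 and 29.0 in controls and 37.0, 45.1 and 35.4 in nulls. All nulls lay above all controls, but every value was under the level of 109.7. Lta, the lymphotoxin that B and T cells secrete, was at 420.2, 1034.6 and 396.7 in controls and 322.1, 271.6 and 443.5 in nulls. The highest mouse was control replicate 2, the groups overlapped, and Lta did not pass (log2 change -0.70, 95% interval -1.54 to 0.14, limma adjusted p = 0.375). A second Lta probe set was dim, at no more than 100.5. Tnf and Lta are neighbours in the RefSeq annotation. Tnfsf10, the death ligand TRAIL, was at 175.5 ± 56.6 in controls and 168.4 ± 27.0 in nulls (SD, n = 3; limma adjusted p = 0.975). Tnfsf4, Tnfsf8, Tnfsf9 and Tnfsf11, which act on lymphocytes and osteoclasts, were dim.

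Of the TNF receptors, Tnfrsf1a, the main receptor of TNF, was at 903.2, 1020.8 and 1163.9 in controls and 884.5, 1144.7 and 1136.0 in nulls on its brighter probe set (log2 change 0.03, 95% interval -0.32 to 0.39). A dimmer one was at 158.5, 188.3 and 165.6 in controls and 54.3, 149.7 and 266.4 in nulls (log2 change -0.34, 95% interval -1.43 to 0.74). Tnfrsf1b, the second receptor of TNF, was at 222.6 ± 15.8 (SD, n = 3) and 240.4 ± 4.59 (limma adjusted p = 0.741). Tnfrsf11a, the receptor RANK, was at 350.4 ± 79.1 and 288.7 ± 84.6 (limma adjusted p = 0.594). Its decoy Tnfrsf11b, osteoprotegerin, was at 159.1, 103.4 and 81.8 in controls and 142.6, 210.5 and 182.0 in nulls (log2 change 0.62, limma adjusted p = 0.314). Tnfrsf18 and Tnfrsf21 did not pass either, and Tnfrsf4, Tnfrsf8, Tnfrsf9 and Tnfrsf19 were dim.

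Tnfrsf17, the plasma cell survival receptor BCMA, was at 120.2, 142.3 and 110.0 in controls and 206.5, 182.2 and 169.7 in nulls. All nulls lay above all controls, but Tnfrsf17 did not pass (log2 change 0.54, SE 0.20, limma adjusted p = 0.208). Of 6 B lymphocyte and plasma cell genes measured, 1 rose, the joining chain Jchain that plasma cells use to assemble IgA and IgM. Jchain was at 3222 ± 375 in controls and 5564 ± 585 in nulls (SD, n = 3; log2 change 0.79, limma adjusted p = 0.0217). The summed intensity of these genes was between 4113 and 4494 in controls and between 6170 and 7146 in nulls. Without Jchain, the other 5 genes summed to between 850.6 and 1185 in controls and between 844.1 and 1080 in nulls, with overlap. The B cell genes Cd79a and Ms4a1 had log2 changes of -0.22 and -0.28, and Cd79b and Blk of 0.08 and 0.15. A second, dimmer Ms4a1 probe set had a log2 change of -1.03 and did not pass (limma adjusted p = 0.218). Cd22 was dim. The call of Jchain was lost without control replicate 1 or 3 or null replicate 1 or 3, without a trend and in males only. Their part in the values of Tnfrsf17 was not tested.

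No colony stimulating factor or receptor passed the test. Csf1, the macrophage growth factor, was at 303.0, 267.1 and 383.8 in controls and 433.7, 334.8 and 323.4 in nulls (log2 change 0.19, limma adjusted p = 0.642). Csf3, the neutrophil growth factor, was at 362.8, 373.5 and 403.0 in controls and 401.5, 423.6 and 564.4 in nulls (log2 change 0.26, limma adjusted p = 0.441). Its receptor Csf3r was at 523.7, 1101.6 and 598.6 in controls and 1065.7, 732.2 and 788.1 in nulls on 1 probe set and dim on 2 others. Csf2 was dim, at no more than 56.7. Of its receptor chains, Csf2ra was at 180.0 ± 26.5 (SD, n = 3) and 138.3 ± 43.4, and Csf2rb2 at 131.4 ± 27.4 and 176.1 ± 24.9, with neither passing. Of 7 neutrophil genes measured, Csf3r among them, 4 were tested. Of these, 1 rose, the iron-binding protein Ltf, from 31.8 ± 10.9 to 151.1 ± 34.5 (at least 1.32-fold, limma adjusted p = 0.0368). The log2 changes of Elane, Camp and Csf3r were -0.15, -0.03 and 0.27. S100a8, S100a9 and Mpo were dim, with every null mouse above every control, though a second Mpo probe set overlapped. Without Ltf, the other 6 genes summed to between 889.8 and 1562 in controls and between 1225 and 1640 in nulls, with overlap. Ltf was above the level of 109.7 in null mice only, so it could only be called as a rise. It passed in 1 of the 6 fits that left out 1 mouse, that without control replicate 2. The fits without a null mouse could not test it, because the filter required 3 arrays above the level.

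Genes that act beside or downstream of these receptors were followed in 8 lists. Of the 78 distinct genes tested, 5 rose and 1 fell. Over all tested probe sets, 1.13% rose and 1.87% fell. Of the 5, Retnlb, Saa3, Cxcl1 and Cxcl5 exceeded the level of 109.7 in null mice only and could only be called as rises. The counts can therefore not be read against these shares. The signalling proteins themselves did not pass: 0 of 15 Janus kinase and STAT genes, 0 of 20 TNF receptor adaptors and NF-kB genes, and 0 of 6 adaptors of the interleukin 1 and 18 receptors. The median log2 changes of these lists were 0.15, 0.14 and -0.04, against 0.03 over all tested probe sets. Of 5 tested death receptors and lymphotoxin relatives outside the name rule, 0 passed either. Socs3, Tnfaip3 and Socs1 had the 3 largest log2 changes of the genes in these lists, and none passed. Socs3, which restrains signalling from the interleukin 6 group, was at 417.0, 281.7 and 787.4 in controls and 1020.0, 1641.5 and 1776.9 in nulls (log2 change 1.64, SE 0.36, limma adjusted p = 0.0586), and its second probe set had a log2 change of 1.93 (limma adjusted p = 0.0556). Socs1, which restrains interferon and interleukin 4 signalling, was at 253.3 ± 47.1 (SD, n = 3) and 502.1 ± 125.7 (log2 change 0.94, limma adjusted p = 0.0719). Tnfaip3, which ends NF-kB signalling, was at 93.0, 169.3 and 38.3 in controls and 209.1, 53.7 and 513.6 in nulls, with overlapping groups (limma adjusted p = 0.557). Nfkbia, the inhibitor of NF-kB, was at 1213 ± 123.4 and 1668 ± 112 (limma adjusted p = 0.102). All nulls lay above all controls in Socs3, Socs1 and Nfkbia.

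The genes that passed were secreted products. Of 9 tested genes that interleukins 6 and 22 are known to induce, Lrg1 and Saa3, which encode acute phase proteins, rose, and Reg3a, an antimicrobial lectin, fell. Lrg1 was at 81.6, 182.8 and 133.1 in controls and 1941.2, 988.2 and 2484.0 in nulls (12.3-fold, limma adjusted p = 0.0044). Saa3 was at 48.8, 6.1 and 24.9 in controls and 524.3, 185.8 and 331.9 in nulls (at least 2.73-fold, limma adjusted p = 0.0199). Reg3a was at 6918 ± 608 in controls and 4511 ± 174.6 in nulls (SD, n = 3) and fell by 0.61 on the log2 scale (limma adjusted p = 0.0295; 0.0552 on a second probe set). These lists were drawn up with earlier results of these data known, so their counts are no independent evidence of direction. Of 8 tested genes that TNF and interleukin 1 are known to induce, the neutrophil-attracting chemokines Cxcl1 (at least 1.89-fold, limma adjusted p = 0.0151) and Cxcl5 (at least 1.42-fold, limma adjusted p = 0.0416) rose and 0 fell. Retnlb was the fifth gene that rose. Of these 6 genes, 4 (Retnlb, Saa3, Cxcl1 and Cxcl5) exceeded the level of 109.7 in null mice only, so that they entered the test through the group where they were high and could only be called as rises. Of the ligands of these response lists, Tnf, Il1a, Il1b and Il6 were dim in the same mice, and Il22 was not among the members. Without null replicate 1, 2 or 3, 1 gene of the lists rose in each fit and 0 fell. Without control replicate 1, 3 rose and 0 fell. In the fits without a null mouse, Retnlb, Saa3, Cxcl1 and Cxcl5 could not be tested, because the filter required 3 arrays above the level. Those fits therefore cannot show whether the calls of these 4 genes depend on single null mice. Lrg1 passed in each of the 6 fits that left out 1 mouse. Retnlb and Saa3 passed in each fit without a control mouse, and Cxcl1 in those without control replicate 2 or 3. Cxcl5 passed in none of the fits without a control mouse. Reg3a was tested in all 6 fits and passed only without control replicate 3.

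**Figure D4:**
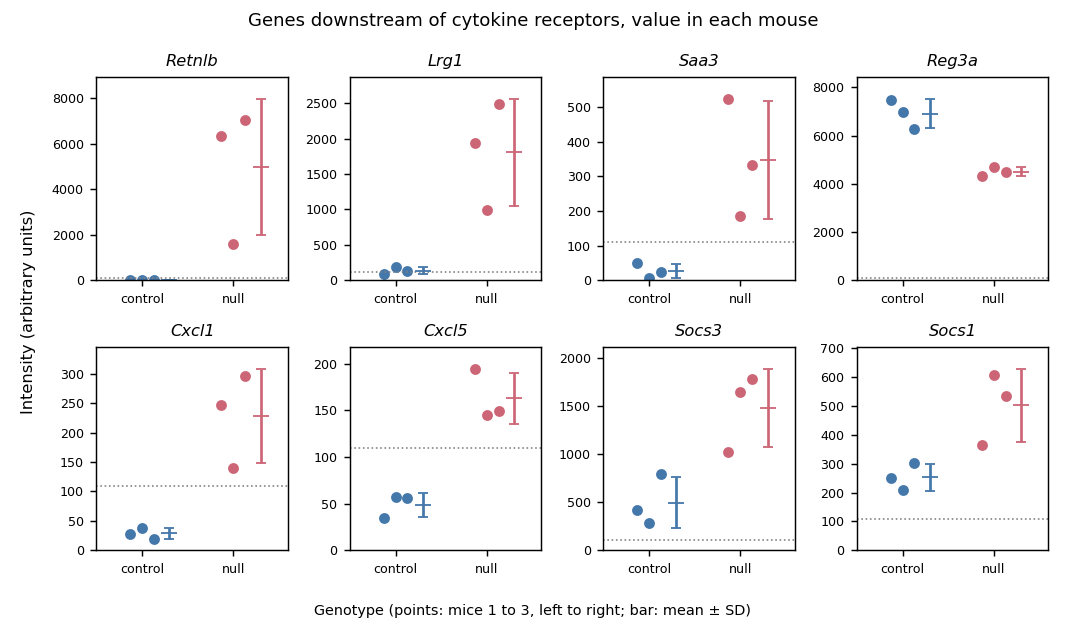
Intensity in arbitrary units (y axis, from 0) of 8 genes that act downstream of cytokine receptors, in control and null mice, with points for replicates 1 to 3 from left to right, bars for mean ± SD and a dotted line at 109.7. The 3 nulls lie above the 3 controls in each panel but that of Reg3a, where they lie below. Socs3 and Socs1 did not pass the test.

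Several genes had more than 1 member probe set, 13 in all, of which 5 had at least 2 tested. These agreed in sign for Il17ra, Il1r2 and Il6st and differed in sign for Ifnar2 and Tnfrsf1a. The interaction of genotype and sex, which rests on 1 female a group, called 0 of the 38 members and 0 of the 7601 probe sets by limma. At an unadjusted p under 0.05 it held 1 member and 236 probe sets (3.10%). Probe sets that carry several symbols were left out by the rule. They include 1 shared by Csf2rb2 and Csf2rb, at 175.6, 288.6 and 181.8 in controls and 187.6, 195.6 and 387.4 in nulls, and 1 shared by Tnfsfm13 and Tnfsf12, at 261.4, 293.3 and 230.5 in controls and 160.8, 189.2 and 239.1 in nulls.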

How the data were processed

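Total RNA was prepared with TRIzol from 1 small intestine per array, per the labels. The deposited values are intensity values on a linear scale, and their equal trimmed means show that they had been scaled before; the software, background correction and detection calls are not given in the sources used here. They were used as deposited and turned into log2(value + 12). Control probe sets of the array (66) were set aside. The null-minus-control difference was fitted in limma 3.58.1 under R 4.3.3 (lmFit, then trended eBayes). Its two-sided p-values were adjusted by Benjamini-Hochberg over all 7601 probe sets tested, and an adjusted p under 0.05 counts as passing. Where the lower group's mean on the log2 scale lay under 109.7, the fold is a bound against that level. The p-values measure the spread between these mice, and 3 mice a group limit every value.

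Probe sets were named from the platform annotation, which can be old. All 91 Entrez identifiers were found in the RefSeq table, which changed 0 symbols. A list gene stands by the brightest of its tested probe sets. Named members were those past the threshold, those with no overlap and a log2 change of at least 0.5, the 3 brightest tested of each role, a fixed list of well-known cytokines, genes whose probe sets disagree, and up to 4 genes past the threshold in each pathway list. Other members are named as values, chosen after these were seen. The members, lists and alternatives were chosen with earlier results of these data known. The functions were tested on simulated data. Alternatives were quantile normalization, medians made equal, a pseudocount of 3 or of 48, a filter at the 60th percentile or none, eBayes without a trend or robust, sex as a covariate, males only, and leaving out each mouse. Marker sums without the genes that passed were added after the data were seen.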

Additional observations from a re-analysis of the deposited data

Results flagged for a closer look

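Csf1 and Il18 differed in direction between the sexes without a test that called the difference. For Csf1 both null males lay above both control males (log2 change 0.38) and the null female lay below the control female (log2 change -0.19), a difference of 0.57 (interaction, limma unadjusted p = 0.177). For Il18 the log2 change was 0.14 in males and -0.31 in females, a difference of 0.45 (interaction, limma unadjusted p = 0.15). The female values rest on 1 mouse a group. Groups of 3 are too small to mark single mice as outlying.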

How the results depend on the processing

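Il18bp passed, and was the single member that did, under every alternative normalization, pseudocount, filter, eBayes setting and with sex as a covariate (limma adjusted p from 0.019 to 0.0487). In males only, 0 members passed (limma adjusted p = 0.147 for Il18bp), and leaving out 1 mouse at a time gave between 0 and 1 members higher, with a log2 change of Il18bp between 1.91 and 2.80. Over all probe sets, 42 rose and 79 fell in males only, 49 and 92 without a trend, and between 11 and 68 rose and between 35 and 116 fell without single mice. Of the genes in the 8 lists, 3 rose and 0 fell in males only (Socs3, Saa2 and Lrg1). With sex as a covariate 7 rose (Socs3, Socs1 and Saa2 passed and Cxcl5 did not). With the filter at the 60th percentile 3 rose (Socs3, Retnlb and Lrg1). Without a filter 0 fell, and 0 without a trend. Between 1 and 6 rose and between 0 and 1 fell without single mice, and Socs3 and Saa2 passed without control replicate 3. Retnlb, Saa3, Cxcl1 and Cxcl5 could not pass in males only or without any null mouse, because too few arrays were left above the filter level. With the filter at the 60th percentile, Saa3, Cxcl1 and Cxcl5 were not tested. The number of members tested was 91 without a filter and 18 with the stricter one. In males only, the sign turned for Ifngr1 (log2 change 0.076) and Il18 (0.14). Without single mice, the log2 change spanned 0 for Ifngr1 (-0.17 to 0.027), Il16 (-0.16 to 0.058), Il18 (-0.067 to 0.079), Il9 (-0.56 to 0.27), Tnfsf10 (-0.21 to 0.20) and Tnfrsf1a (-0.056 to 0.15 and -0.82 to 0.22 on its probe sets), and none of these passed. The cause was not tested. The other named members kept their direction and side of the threshold. Of the 12 list and marker genes that passed, 0 turned in sign, and Lrg1, Mcpt1 and Mcpt2 passed under every alternative and without each mouse. No paired analysis was possible because the labels give no replicate numbers; the titles are unexplained codes, of which those of a control and a null share a stem.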

Other observations

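The mice differed in how often they gave the highest value of a member. Control replicate 2 was the highest of the 6 mice in 11 of the 38 tested members (28.9%), against 20.9% of all tested probe sets. Null replicate 2 was the highest in 1 member (2.6%), against 16.7% of all tested probe sets. The members topped by control replicate 2 include Lta, Csf3r, Tnfsf10 and Il10rb, and it also gave the highest control value of Il18bp, Il4ra and Il1rn.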
